A study of Mus musculus with 32 samples.

Results

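The genes described are 9 enzymes of the mitochondrial tricarboxylic acid (TCA) cycle, chosen by name: Cs, Idh3a, Idh3b, Idh3g, Ogdh, Dlst, Suclg1, Fh1 and Mdh2. They are 9 of the 24885 gene identifiers in the table, and all 9 had enough counts to be among the 11244 genes tested. They were followed in bone marrow-derived macrophages, cultured from mouse marrow, in 32 libraries. The 8 groups, of 4 libraries each, combined the genotype (wild-type, or T2KO, the Trem2-/- line), the M-CSF level of the medium (normal or low) and treatment with LPS or none. Both genotypes carry the strain label C57BL/6, and the knockout came from a line made earlier by another group. All groups spent a night in complete RPMI holding either 10% or 0.5% LCCM, and the LPS groups were exposed to 10 ng/ml LPS for 4 hours. Low M-CSF is read here as the 0.5% and normal M-CSF as the 10% LCCM medium, which no label states. The ages of the mice and the number of mice behind the libraries are not given in the sources used here.

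The TCA cycle oxidises the acetyl group of acetyl-CoA in the mitochondrial matrix and hands the electrons to the respiratory chain as NADH and FADH2. Its intermediates also leave the cycle for biosynthesis: citrate for fatty acids, oxaloacetate for aspartate. Macrophages activated by LPS are known for reshaping the cycle, with itaconate made from cis-aconitate by the enzyme encoded by Acod1, and with accumulation of succinate. M-CSF is the growth factor on which these macrophages depend for survival and division. TREM2 is a lipid-sensing surface receptor of macrophages and microglia, and the series title ties it to the energy metabolism of microglia.

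Each of the 9 genes has a known place in the cycle. Cs encodes citrate synthase, the entry step that joins acetyl-CoA to oxaloacetate. Idh3a encodes the catalytic subunit of the NAD-dependent isocitrate dehydrogenase, and Idh3b and Idh3g encode its other subunits. Ogdh and Dlst encode the E1 and E2 components of the 2-oxoglutarate dehydrogenase complex. Suclg1 encodes the alpha subunit shared by both succinyl-CoA ligases. Fh1 encodes fumarase and Mdh2 the mitochondrial malate dehydrogenase, which closes the cycle at oxaloacetate. Each lies on its own chromosome of mm10, for example Cs at chr10:128337727-128362482, Idh3a at chr9:54586511-54604662 and Mdh2 at chr5:135778649-135790386.

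Several facts on the libraries bear on every value below. Total counts ran from 3068863 to 15585423 per library, and the libraries read the 3′ ends of polyadenylated transcripts. Libraries numbered 1 and 3, and likewise 2 and 4, were closer to each other than any other pair in 6 of the 8 groups. Across all groups the counts of these pairs differed by a chi-square per degree of freedom of 4.03 to 37.3 (median 6.375, 16 pairs of libraries), against 9.73 to 81.5 (median 27.55, 32 pairs) for the other pairs within groups. These values are above sampling noise, which does not show that the libraries of such a pair are independent. All 4 libraries of each group were kept in the main tests. In wild-type cells in normal M-CSF without LPS, library 1 stood apart from the other 3, and in wild-type cells in low M-CSF without LPS library 2 did. The labels do not say whether they came from separate mice or cultures, so each p measures the spread between these libraries, and each result was also computed with such pairs summed, which leaves 2 samples a group. Mean Trem2 was lower in the knockout than in the wild-type in each condition: 36.3 against 305 CPM (counts scaled to library size) in normal M-CSF without LPS, 5.88 against 226 with LPS, 115 against 460 in low M-CSF without LPS and 6.01 against 332 with LPS. Whether the Trem2 reads of the knockout came from a kept part of the gene or from another source was not tested. All 9 macrophage markers on a list were present in every group (summed level 4930 to 11400 CPM per library). Their sum differed between media: without LPS it was 4930 to 5530 CPM in normal and 8360 to 9900 CPM in low M-CSF in wild-type cells. In knockout cells it was 5320 to 6110 and 9060 to 10600 CPM. Lymphocyte markers summed to at most 5.44 CPM with Cd3g at 0 counts, and dendritic, stromal and osteoclast markers to at most 21.4, 22.2 and 61.6 CPM. Neutrophil markers summed to 54.6 to 67 CPM in wild-type cells in normal M-CSF without LPS and to 372 to 512 CPM in knockout cells in low M-CSF with LPS. In bulk RNA, fewer cells of a type and less RNA per cell cannot be told apart.

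The level of each gene is given in CPM after scaling of the libraries (TMM), as the mean ± SD over 4 libraries, and the genes are not ranked against each other. The 4 normal M-CSF groups held the higher levels of most of these genes. The summed level of all 9 was highest in knockout cells in normal M-CSF with LPS, at 793 ± 26.8 CPM (SD, n = 4), then 742 ± 48 in wild-type cells with LPS, 670 ± 73 in wild-type cells without LPS and 644 ± 38.6 in knockout cells without LPS. In low M-CSF it was 482 ± 64.2 in wild-type cells with LPS, 458 ± 34.5 in knockout cells without LPS, 426 ± 20 in wild-type cells without LPS and 393 ± 13.5 in knockout cells with LPS. Every low M-CSF library, with at most 545 CPM, lay below every normal M-CSF library, with at least 604 CPM. Of the 9 genes, 5 had their lowest group mean in knockout cells in low M-CSF with LPS.

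**Figure D1:**
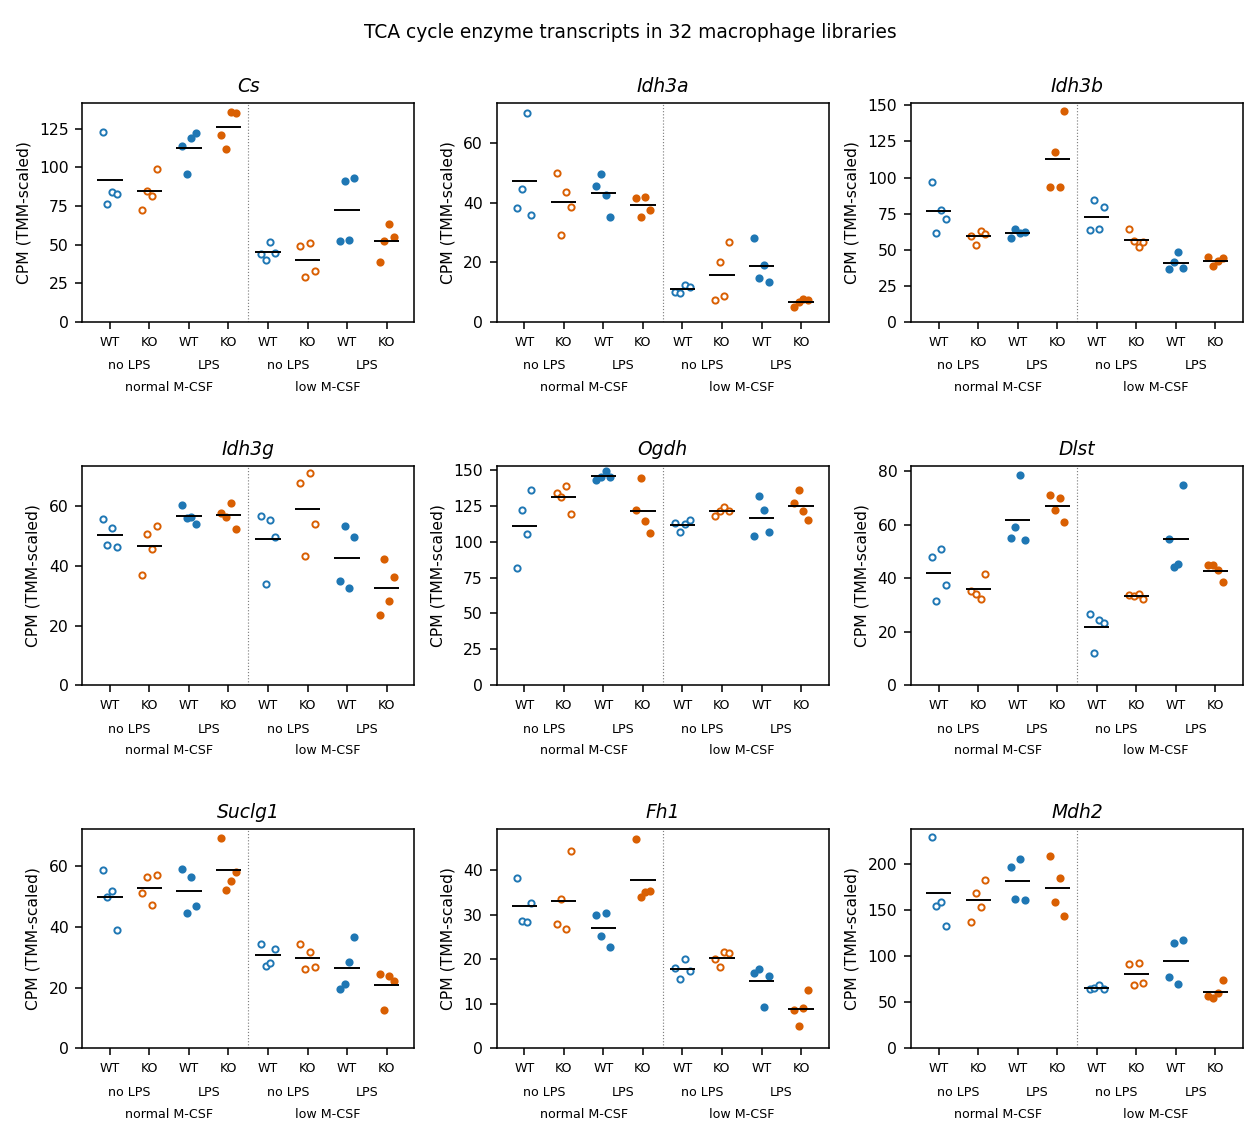
Level of each of the 9 transcripts (y axis, TMM-scaled CPM, linear from 0) in the 32 libraries, with open points for no LPS, filled points for LPS, blue for wild-type and orange for knockout, and a line at each group mean. Normal M-CSF is left of the dotted line; Idh3a, Suclg1, Fh1 and Mdh2 sit lower to its right, while Ogdh stays between 81.3 and 149 CPM throughout.

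The 9 genes differed in how far they moved. Idh3a had the widest range, 7.11-fold between its highest group mean (47.2 CPM) and its lowest (6.64 CPM). Fh1 followed with 4.23-fold, from 37.8 to 8.93 CPM. Cs spanned 3.11-fold, Dlst 3.09-fold, Mdh2 2.95-fold, Suclg1 2.82-fold and Idh3b 2.75-fold. Idh3g, at 1.8-fold, and Ogdh, at 1.32-fold, varied least. When the 8 group means of a gene were put in order, few neighbours stood apart by more than the sum of their SDs. For Idh3a, the step from 39.1 ± 3.28 CPM (the lowest normal M-CSF group) to 18.8 ± 6.68 CPM (the highest low M-CSF group) did, and so did the step from 11.1 ± 1.22 to 6.64 ± 1.21 CPM at the bottom (SD, n = 4). For Mdh2 the step from 161 ± 19.9 to 94.8 ± 24.6 CPM, again between the media, was the widest. For Cs and Idh3g no step between neighbouring means exceeded the sum of their SDs.

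The first comparison asked how the transcripts of the cycle responded to low M-CSF, in each genotype and with or without LPS. Of the 9 genes, 5 (Cs, Idh3a, Suclg1, Fh1 and Mdh2) fell in low M-CSF in all 4 settings, which share no libraries. They cover the entry step, the catalytic subunit of isocitrate dehydrogenase, succinyl-CoA ligase, fumarase and malate dehydrogenase. Of all genes tested, 1068 (9.5%) fell in all 4. None of the 9 rose in any setting with all libraries. Without knockout low M-CSF library 2, Idh3g rose in knockout cells without LPS (log2 change 0.50, adjusted p = 0.0333), where the value with all libraries was 0.34 ± 0.19 (adjusted p = 0.135).

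In wild-type cells without LPS, Idh3a measured 38.2, 44.7, 70.0 and 35.9 CPM in normal M-CSF and 10.2, 9.86, 12.4 and 11.8 CPM in low M-CSF. The lowest library in normal medium was above the highest in low medium. The log2 change was -2.10 ± 0.28 (SE), a 4.28-fold lower level, with an adjusted p of 1.81e-07 in edgeR's quasi-likelihood test. Mdh2 measured 229, 155, 159 and 133 CPM in normal and 64.7, 65.7, 68.7 and 64.6 CPM in low M-CSF, a log2 change of -1.36 ± 0.18 (adjusted p = 1.36e-07). The low M-CSF libraries lay close together, and the library of normal M-CSF at 229 CPM stood above its group. Cs measured 123, 76.0, 84.3 and 82.9 CPM against 44.1, 40.1, 51.8 and 45.0 CPM, a change of -1.02 ± 0.20 on the log2 scale (adjusted p = 7.14e-05). Dlst fell by 0.96, Fh1 by 0.85 and Suclg1 by 0.70 on the log2 scale. Thus 6 of the 9 fell, against 21.9% of all genes tested, and the median log2 change of the 9 was -0.85 beside 0.01 for all genes. Idh3b (-0.07 ± 0.16), Idh3g (-0.04 ± 0.19) and Ogdh (0.01 ± 0.14) did not pass the test. The same count of 6 was reached with any 1 library left out, library 1 of normal M-CSF included.

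In knockout cells without LPS, 5 of the 9 fell, against 21.7% of all genes, with a median log2 change of -0.70 beside 0.10. Cs fell by 1.06, Mdh2 by 0.99, Suclg1 by 0.83 and Fh1 by 0.70 on the log2 scale. Idh3a measured 49.8, 29.3, 43.4 and 38.4 CPM in normal and 7.29, 20.2, 8.62 and 26.7 CPM in low M-CSF, a change of -1.33 ± 0.27. The low M-CSF libraries split by pair, with libraries 1 and 3 below libraries 2 and 4, and all 4 lay below normal M-CSF. Dlst, the E2 component that fell in wild-type cells, measured 33.7, 33.5, 34.2 and 32.3 CPM in low and 35.2, 34.2, 32.1 and 41.7 CPM in normal M-CSF, a change of -0.10 ± 0.19 that did not pass. The test of the difference between genotypes in the Dlst response gave 0.87 ± 0.27 and missed the threshold in edgeR (adjusted p = 0.0566), while DESeq2 gave an adjusted p of 0.0287. No other of the 9 passed that test in edgeR, where 4.62% of all genes did, and 1 of the 9, Dlst, had an unadjusted p under 0.05.

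With LPS, 6 of the 9 fell in wild-type cells (24.2% of all genes, median -0.64 beside -0.10) and 8 of the 9 in knockout cells (32.8% of all genes, median -1.40 beside -0.14). Scaling with RLE size factors moved the median of all genes to 0.01 and 0.02 in these 2 comparisons, and the same 6 and 8 genes fell. In knockout cells, Idh3a measured 41.5, 35.1, 42.0 and 37.7 CPM in normal and 4.94, 6.66, 7.68 and 7.28 CPM in low M-CSF. The groups stood far apart, and the change of -2.56 ± 0.32 (5.89-fold lower, adjusted p = 2.15e-08 in edgeR) was the largest of the 9 in the medium comparisons. Fh1 measured 47.0, 33.9, 35.0 and 35.2 CPM against 8.65, 5, 8.96 and 13.1 CPM, a change of -2.11 ± 0.23 (adjusted p = 1.09e-09). Its lowest library in normal medium was above every library in low medium. Mdh2 fell by 1.51, Suclg1 by 1.49, Idh3b by 1.40, Cs by 1.27, Idh3g by 0.81 and Dlst by 0.64 on the log2 scale. Ogdh alone did not pass, at 0.04 ± 0.14. In wild-type cells with LPS, Idh3a fell by 1.19, Suclg1 by 0.98, Mdh2 by 0.94, Fh1 by 0.84, Cs by 0.64 and Idh3b by 0.58.

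**Figure D2:**
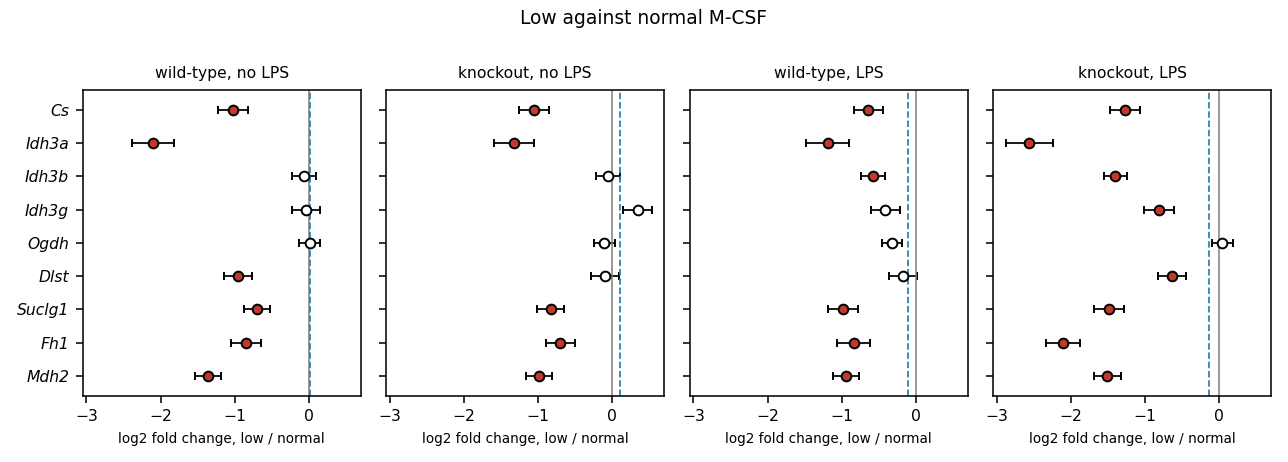
Log2 fold change of each gene, low over normal M-CSF (x axis), in the 4 settings, with bars of 1 SE. Red points passed an adjusted p of 0.05 in edgeR and the dashed blue line is the median of all genes tested; Cs, Idh3a, Suclg1, Fh1 and Mdh2 are red and left of 0 in all 4 panels, and Ogdh is open in all 4.

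Of the 25 results that passed in the 4 medium comparisons, 22 also passed with library pairs summed. The exceptions were Cs (adjusted p = 0.134) and Idh3b (0.104) in wild-type cells with LPS and Dlst in knockout cells with LPS (0.071). Cs in wild-type cells with LPS also missed the threshold without low M-CSF library 1 (0.0503) or 3 (0.05). Its low M-CSF libraries measured 52.7, 90.9, 52.9 and 92.8 CPM. Division genes moved with the medium in the same libraries. All 12 genes of a proliferation list fell without LPS in both genotypes, their summed level being 2910 to 3630 CPM in normal and 940 to 1820 CPM in low M-CSF in wild-type cells, and 2450 to 3280 against 245 to 420 CPM in knockout cells. With LPS 11 of the 12 fell in each genotype. Of all genes, 21.9% and 21.7% fell without LPS in wild-type and knockout cells, and 24.2% and 32.8% with LPS. Of 9 neutrophil markers tested, 2 rose in low M-CSF in wild-type and 7 in knockout cells without LPS, where 22.4% and 26.6% of all genes rose. With LPS 5 and 6 of them rose (21.4% and 26.5% of all genes), and none fell in any setting. Of the 9 macrophage markers, 6 rose and 1 fell in low M-CSF in wild-type cells without LPS, and 4 rose and 1 fell in knockout cells. With LPS 6 rose and none fell in wild-type cells, and 6 rose and 1 fell in knockout cells. The part of these lists in the change of the TCA cycle genes was not tested.

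Promoter windows are shown for Cs, Fh1 and Mdh2, which fell in all 4 medium comparisons, and for Ogdh, which passed in none. Suclg1 also fell in all 4, but its window, which held none of the searched motifs, is not shown. Idh3a fell in all 4 too and had no window. The sequence just after the start lay in a GENCODE transcript of the gene for Cs, Fh1 and Mdh2, but not for Ogdh. Each window is the 250 bases before the gene's start in RefSeq GRCm38.p6, written 5′ to 3′ on the gene's own strand, with letters of the searched motifs in capitals. The capitals are CCAAT or its reverse complement ATTGG (the CCAAT box), TGACGTCA (the cAMP response element) and a CGCG element, TCTCG joined to its reverse complement CGAGA. The windows are Cs at chr10:128337477-128337726, plus strand, Fh1 at chr1:175625636-175625885, minus strand, Mdh2 at chr5:135778399-135778648, plus strand and Ogdh at chr11:6291347-6291596, plus strand.
Cs: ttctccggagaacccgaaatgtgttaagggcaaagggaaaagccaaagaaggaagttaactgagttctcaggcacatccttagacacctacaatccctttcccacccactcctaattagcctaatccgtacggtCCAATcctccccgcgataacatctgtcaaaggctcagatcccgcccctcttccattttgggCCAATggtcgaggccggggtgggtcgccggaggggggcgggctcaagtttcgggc
Fh1: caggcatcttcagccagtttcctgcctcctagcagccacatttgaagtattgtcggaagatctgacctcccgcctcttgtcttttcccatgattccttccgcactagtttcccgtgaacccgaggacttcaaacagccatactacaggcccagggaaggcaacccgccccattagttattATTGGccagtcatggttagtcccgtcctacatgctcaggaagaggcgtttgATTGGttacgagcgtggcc
Mdh2: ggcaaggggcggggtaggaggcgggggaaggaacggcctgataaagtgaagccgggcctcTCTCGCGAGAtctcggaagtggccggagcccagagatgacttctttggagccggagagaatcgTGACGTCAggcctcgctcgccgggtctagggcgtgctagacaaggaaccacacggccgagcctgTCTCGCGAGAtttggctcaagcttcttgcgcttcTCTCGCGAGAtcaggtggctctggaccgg
Ogdh: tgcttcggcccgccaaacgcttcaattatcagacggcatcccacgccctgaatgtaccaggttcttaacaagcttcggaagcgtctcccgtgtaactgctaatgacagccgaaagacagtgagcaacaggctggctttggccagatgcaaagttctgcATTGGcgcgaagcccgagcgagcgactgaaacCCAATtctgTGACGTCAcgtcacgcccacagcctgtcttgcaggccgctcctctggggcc

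Of the 9 genes, 8 matched the RefSeq promoter table of 27025 genes, all but Idh3a. A list of 5 motifs was searched on both strands: the NRF1 motif (GCGC and TGCGC with any base between them) and its core TGCGCA, which can overlap it, the E-box CACGTG, the ETS motif CCGGAAG and the nuclear receptor half-site AAGGTCA. The ETS motif was found in 1 of the 8 windows, that of Idh3g, against 7.07% of all windows. The other 4 motifs were in none of the 8, while 3.87%, 6.67%, 6.04% and 4.04% of all windows held them. The 3 motifs in capitals were added after the windows had been read, so their presence here is a description of chosen letters. The Mdh2 window held the CGCG element at 3 positions, 190 to 181, 63 to 54 and 29 to 20 bases before the start, and 0.414% of all windows held it at all. TGACGTCA was in the windows of Mdh2 and Ogdh (1.6% of all windows), and CCAAT in those of Cs, Fh1, Idh3b and Ogdh (34.5% of all). GC content ran from 46.8% for Idh3b to 64.8% for Dlst, beside a median of 52% over all windows. A link of any of these motifs to the response to M-CSF was not tested.

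The second comparison asked what LPS did to the same transcripts. The response had no common direction. In normal M-CSF the genes that passed in edgeR with all libraries rose: Dlst and Ogdh in wild-type cells, and Cs, Dlst and Idh3b in knockout cells. In low M-CSF, 4 of the 9 rose and 1 fell in wild-type cells. In knockout cells there, 6 fell and none rose in edgeR with TMM scaling. No gene of the 9 passed in the same direction in all 4 settings, which share no libraries, where 13.2% of all genes rose and 10.8% fell in all 4. Dlst rose in 3 of the 4, and it rose in all 4 with RLE size factors, in DESeq2 and in fits of the compared groups alone, where knockout cells in low M-CSF gave 0.47, 0.47 and 0.45 (adjusted p = 0.0298, 0.023 and 0.0303). Of the 9 neutrophil markers tested, 5 rose with LPS in wild-type cells in each medium (18.3% of all genes in normal and 27% in low M-CSF). In knockout cells 6 rose in normal and 3 in low M-CSF (20.9% and 26.5% of all genes). Of the 12 proliferation genes, 8 and 10 fell in wild-type cells in normal and low M-CSF (17.9% and 33.6% of all genes). In knockout cells 5 fell in normal M-CSF (21.8%), and 7 fell and 4 rose in low M-CSF (41% and 26.5%). Their part in the LPS responses was not tested.

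In wild-type cells in normal M-CSF, 2 of the 9 rose, against 18.3% of all genes, and none fell. Dlst measured 55.1, 58.9, 78.4 and 54.2 CPM with and 47.9, 31.6, 50.8 and 37.6 CPM without LPS. The groups did not overlap, and the log2 change was 0.55 ± 0.19 (edgeR adjusted p = 0.0192). Ogdh measured 143, 145, 149 and 145 CPM with and 81.3, 122, 105 and 136 CPM without LPS, a change of 0.39 ± 0.14 (adjusted p = 0.0258). Here the LPS libraries lay close together and the untreated ones were spread. Idh3b, at -0.32 ± 0.16, did not pass (adjusted p = 0.108), but it fell in DESeq2 (-0.39, adjusted p = 0.0338) and without untreated library 2 (-0.44, 0.0383). Neither Dlst nor Ogdh passed with library pairs summed (0.145 and 0.238). Dlst also missed the threshold without LPS library 3 (0.108) or untreated library 2 (0.112) or 4 (0.069), and Ogdh without LPS library 3 (0.0552) or untreated library 1 (0.172) or 3 (0.0869).

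In knockout cells in normal M-CSF, 3 of the 9 rose, against 20.9% of all genes. Idh3b measured 93.3, 118, 93.2 and 146 CPM with and 59.8, 53.3, 63.2 and 61.1 CPM without LPS. Every LPS library was above every untreated one, and the log2 change was 0.92 ± 0.16 (1.90-fold, adjusted p = 7.59e-06). Dlst rose from 35.8 ± 4.15 to 66.8 ± 4.66 CPM (SD, n = 4), a log2 change of 0.90 ± 0.19. Cs rose from 84.4 ± 11 to 126 ± 11.5 CPM, a log2 change of 0.58 ± 0.20. The Cs call was lost with pairs summed (adjusted p = 0.128) and without untreated library 1 (0.0665).

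In wild-type cells in low M-CSF, 4 of the 9 rose (27% of all genes did) and 1 fell (33.6%), and the median log2 change was 0.06 beside -0.18 for all genes. Dlst had the largest rise, from 26.7, 12.2, 24.2 and 23.2 CPM without to 54.7, 44.2, 45.2 and 74.9 CPM with LPS. The groups were well apart, with a log2 change of 1.34 ± 0.20 (2.54-fold, adjusted p = 3.81e-07). Idh3b fell from 63.7, 84.5, 64.8 and 79.4 CPM to 37.1, 41.7, 48.5 and 37.2 CPM, a change of -0.83 ± 0.16 (adjusted p = 4.2e-05), again with no overlap. Cs rose by 0.67 ± 0.20, Idh3a by 0.78 ± 0.30 and Mdh2 by 0.52 ± 0.18 on the log2 scale. These 3 were lost with pairs summed (adjusted p = 0.0502, 0.0806 and 0.107). Mdh2 measured 77.5, 114, 69.9 and 118 CPM with LPS and missed the threshold without library 2 (0.0746) or 4 (0.0809) of that group. Idh3a missed it without LPS library 1 (0.194) or untreated library 1 (0.0666) or 2 (0.0559).

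In knockout cells in low M-CSF, 6 of the 9 fell, where 41% of all genes fell and the median of all genes was -0.36, beside -0.42 for the 9. Fh1 measured 20.1, 18.2, 21.6 and 21.3 CPM without and 8.65, 5, 8.96 and 13.1 CPM with LPS, a change of -1.21 ± 0.23 (adjusted p = 1.76e-05). Every LPS library was below every untreated one. Idh3a fell by 1.27 ± 0.32, from 7.29, 20.2, 8.62 and 26.7 CPM to 4.94, 6.66, 7.68 and 7.28 CPM. Here LPS library 3 lay above the lowest untreated library. The untreated libraries split by pair, and most of the Idh3a fall lay in libraries 2 and 4. Untreated libraries 1 and 3, at 7.29 and 8.62 CPM, were close to the LPS libraries. Idh3g fell by 0.86 ± 0.19. These 3 also passed with pairs summed and with every library left out. Suclg1 (-0.51), Idh3b (-0.42) and Mdh2 (-0.40) passed with TMM scaling. With RLE size factors, which moved the median of all genes to -0.25, they missed the threshold (0.0765, 0.0959 and 0.152). With RLE size factors Cs (0.49, adjusted p = 0.0326) and Dlst (0.47, adjusted p = 0.0298) rose instead. DESeq2 also lost Suclg1, Idh3b and Mdh2 (0.0647, 0.0901 and 0.142), and there Cs (0.0272) and Dlst (0.023) rose. In edgeR, Suclg1, Idh3b and Mdh2 were lost with pairs summed (0.116, 0.219 and 0.24). Fits of only the compared groups lost them too (0.136, 0.109 and 0.162). Without LPS library 2, Suclg1 (0.124), Idh3b (0.0522) and Mdh2 (0.105) missed the threshold, and Mdh2 also without LPS library 1 (0.0929) or 3 (0.0724), without untreated library 1 (0.0858) or 3 (0.0914), and with a replicate block (0.0593).

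**Figure D3:**
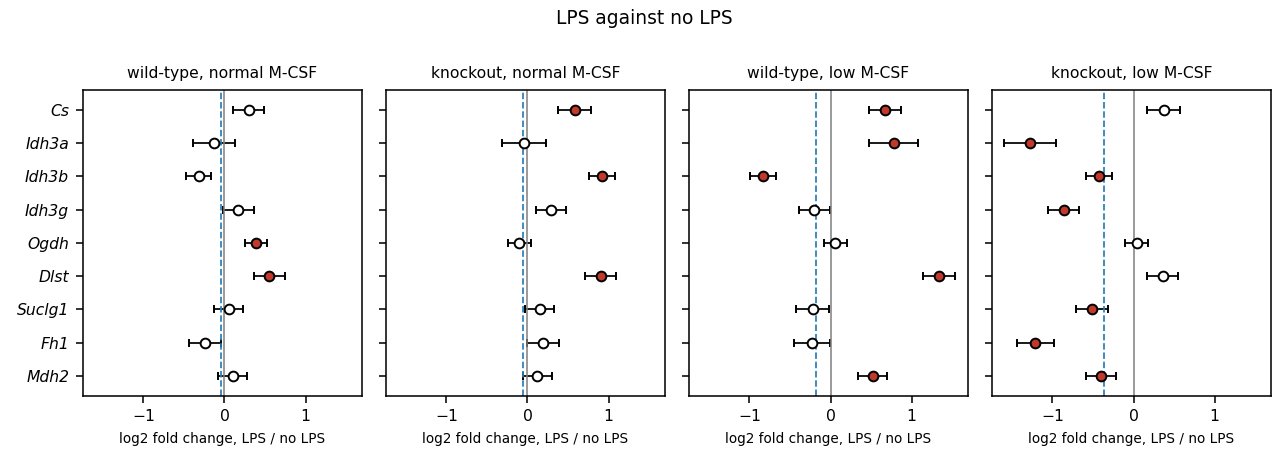
Log2 fold change of each gene, LPS over no LPS (x axis), in the 4 settings, with bars of 1 SE. Red points passed an adjusted p of 0.05 in edgeR and the dashed blue line is the median of all genes; Dlst is right of 0 in all 4 panels but open in knockout cells in low M-CSF (0.36 ± 0.19), where 6 other genes are red and left of 0.

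The LPS response was then compared between the media. In wild-type cells, 1 of the 9 passed, Dlst, with a log2 response larger by 0.79 ± 0.27 in low than in normal M-CSF (adjusted p = 0.0318), where 10.7% of all genes had a larger response. It was lost in 7 of the fits that leave out 1 library (adjusted p 0.0602 to 0.111), among them low M-CSF LPS library 4 (0.59, 0.111) and low M-CSF untreated library 2 (0.59, 0.0886), and with pairs summed (0.183). In knockout cells, 4 of the 9 had a lower response in low M-CSF (22% of all genes): Fh1 by -1.40 ± 0.30, Idh3b by -1.34 ± 0.23, Idh3a by -1.23 ± 0.42 and Idh3g by -1.15 ± 0.27. Idh3b, for example, rose with LPS in normal M-CSF and fell with it in low M-CSF. Fh1 and Idh3b passed with pairs summed. Idh3g (0.071) and Idh3a (0.128) did not, and Idh3a was also lost without low M-CSF LPS library 1 (0.0558) or low M-CSF untreated library 4 (0.0884). Among all genes that passed in knockout cells, 37.6% had a larger response with TMM scaling and 50.4% with RLE size factors.

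The third comparison asked whether the 9 transcripts differed between Trem2 knockout and wild-type macrophages. In normal M-CSF without LPS none of the 9 passed in edgeR, where 1.86% of all genes did. DESeq2 called none of the 9 either, and 1, Idh3b, had an unadjusted p under 0.05 in edgeR (0.0218, log2 difference -0.37 ± 0.16). The differences ran from -0.37 to 0.24, with a median of -0.11 beside -0.01 for all genes.

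In normal M-CSF with LPS, Idh3b was higher in the knockout, and it was the 1 of the 9 that passed, where 1.98% of all genes were higher. It measured 93.3, 118, 93.2 and 146 CPM in knockout and 58.2, 64.5, 61.4 and 62.1 CPM in wild-type cells. The groups did not overlap, and the wild-type libraries lay much closer together. The log2 difference was 0.87 ± 0.16 (1.83-fold, adjusted p = 0.000588). The test of the difference between the genotypes' LPS responses gave 1.25 ± 0.22 for Idh3b (adjusted p = 0.00306), where 0.329% of all genes had a larger response in the knockout. Both Idh3b results passed with each library left out and missed the threshold with pairs summed (0.173 and 0.959), where that second test called no gene at all. The 3′ end of Idh3b overlaps that of Nop56 on the opposite strand by 5 bases, and the strand setting of the counting is not given in the sources used here.

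In low M-CSF without LPS, Dlst was the 1 of the 9 that passed, higher in the knockout, as were 7.74% of all genes. It measured 33.7, 33.5, 34.2 and 32.3 CPM in knockout and 26.7, 12.2, 24.2 and 23.2 CPM in wild-type cells, a log2 difference of 0.63 ± 0.19 (adjusted p = 0.0198). The groups did not overlap, with wild-type library 2 well below its group. Without that library the difference was 0.44 (adjusted p = 0.132), and with pairs summed 0.65 (0.186). In a fit of these 2 groups alone it also missed the threshold (0.095). In the same comparison 7 of the 9 neutrophil markers tested were higher in the knockout, with a median log2 difference of 1.48 and a summed level of 159 to 230 against 61.3 to 102 CPM. Of the 12 proliferation genes, 11 were lower (median -1.47, summed level 245 to 420 against 940 to 1820 CPM), where 8.97% of all genes were lower. Their part in the Dlst difference was not tested.

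In low M-CSF with LPS, 3 of the 9 were lower in the knockout, where 10.9% of all genes were lower, and the median of the 9 was -0.39 beside -0.05. Of all genes that passed, 42.9% were higher in the knockout with TMM scaling and 53.2% with RLE size factors. Idh3a measured 4.94, 6.66, 7.68 and 7.28 CPM in knockout and 28.2, 14.9, 19.0 and 13.3 CPM in wild-type cells. Every knockout library was below every wild-type one, and the log2 difference was -1.52 ± 0.34 (2.86-fold lower, adjusted p = 0.00171). It passed in every alternative tried, pairs summed included (adjusted p = 0.0437). Mdh2 measured 56.8, 54.6, 59.9 and 74.3 CPM against 77.5, 114, 69.9 and 118 CPM, a difference of -0.63 ± 0.18 (adjusted p = 0.0145), and the groups overlapped. Fh1 measured 8.65, 5, 8.96 and 13.1 CPM against 16.9, 17.8, 9.29 and 16.3 CPM, a difference of -0.78 ± 0.25 (adjusted p = 0.0223). Mdh2 was lost without wild-type library 2 (0.0671) or 4 (0.0741). Fh1 was lost without knockout library 1 (0.0519) or 2 (0.102) or wild-type library 1 (0.0595), 2 (0.0719) or 4 (0.0534). Both were lost with pairs summed (0.199 and 0.113) and in a fit of these 2 groups alone (0.0722 and 0.162). Here 1 of the 9 neutrophil markers was higher in the knockout (summed level 372 to 512 against 284 to 322 CPM), as were 8.2% of all genes. Of the 12 proliferation genes, 6 were lower (518 to 763 against 551 to 1380 CPM). Their part in these differences was not tested.

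**Figure D4:**
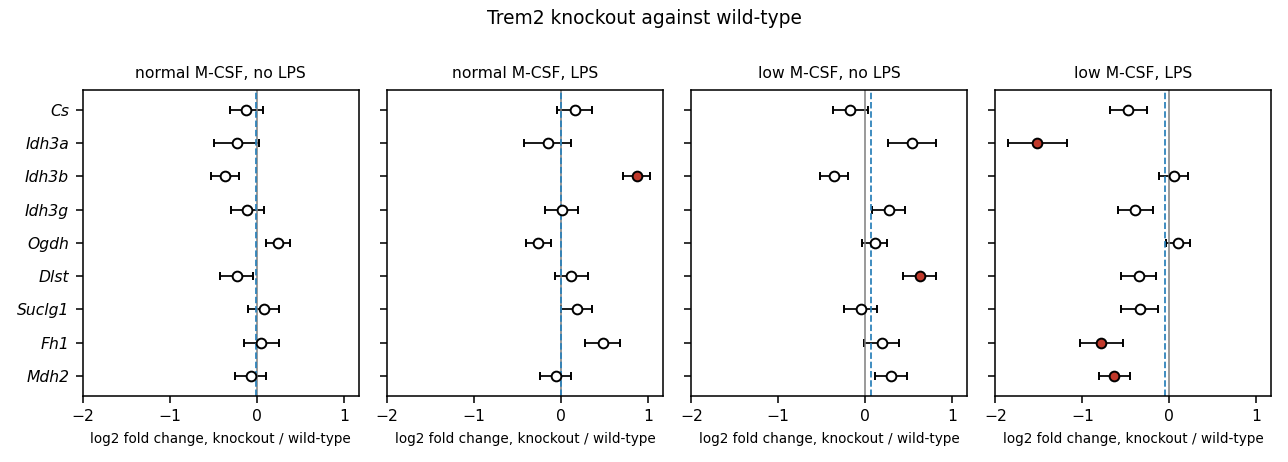
Log2 fold change of each gene, knockout over wild-type (x axis), in the 4 conditions, with bars of 1 SE. Red points passed an adjusted p of 0.05 in edgeR and the dashed blue line is the median of all genes; 5 points are red, Idh3b in normal M-CSF with LPS, Dlst in low M-CSF without LPS, and Idh3a, Fh1 and Mdh2 in low M-CSF with LPS.

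The genotype difference was then compared between conditions. In low M-CSF, the LPS response of 4 genes was lower in the knockout than in the wild-type, as for 8.49% of all genes: Idh3a by -2.05 ± 0.44 (adjusted p = 0.00176), Dlst by -0.99 ± 0.28, Fh1 by -0.98 ± 0.32 and Mdh2 by -0.93 ± 0.26. Idh3a rose with LPS in wild-type and fell in knockout cells, as did Mdh2 with TMM scaling. The Idh3a fall in knockout cells lay mostly in untreated libraries 2 and 4, at 20.2 and 26.7 CPM. Untreated libraries 1 and 3 measured 7.29 and 8.62 CPM. Dlst rose by 1.34 in wild-type cells and had a change of 0.36 in knockout cells. With LPS, the medium response was lower in the knockout for Fh1 (-1.26 ± 0.32, adjusted p = 0.0162) and Idh3b (-0.82 ± 0.23, adjusted p = 0.0314), as for 3.29% of all genes. Idh3a had the largest value of the 9 in that test, -1.37 ± 0.43, and missed the threshold (adjusted p = 0.0526). It passed with no filter on low counts (0.031), in DESeq2 (0.0369) and with only the compared groups (0.0179), while Idh3b was lost with no filter and with only the compared groups. None of the 6 results that passed in these tests did so with pairs summed (adjusted p 0.0733 for Idh3a in low M-CSF and 0.178 to 0.419 for the others). RLE size factors moved the share of all passing genes with a larger value in the knockout from 46.9% to 60.8% in the first of these tests and from 40% to 53.6% in the second, and Fh1 missed the threshold in the first (-0.87, adjusted p = 0.0568). Fh1 in the first test was lost in 7 fits that leave out 1 library (0.0567 to 0.0863), and Idh3b in the second in 9 (0.0512 to 0.0845). Dlst in the first was lost without wild-type LPS library 4 (0.0513).

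The remaining genes of the cycle were followed as a list of 13 other enzymes, subunits and assembly factors, of which 12 were tested. In low M-CSF, 4 of the 12 fell and none rose in each genotype without LPS, where 21.9% (wild-type) and 21.7% (knockout) of all genes fell. With LPS, 5 fell and 1 rose in wild-type cells (24.2% and 21.4% of all genes), and 9 fell in knockout cells (32.8%). Idh2, the mitochondrial NADP-dependent isocitrate dehydrogenase, fell in all 4 comparisons, by 0.75 and 0.54 without LPS in wild-type and knockout cells and by 1.39 and 1.76 with LPS. Mrps36, whose product links the subunits of the 2-oxoglutarate dehydrogenase complex, and Sdhc, a membrane subunit of succinate dehydrogenase, also fell in all 4. Sdhb, the iron-sulfur subunit, fell by 1.39 in knockout cells with LPS and did not pass in the other 3 comparisons.

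With LPS, Dld, the E3 component that the 2-oxoglutarate dehydrogenase complex shares with pyruvate dehydrogenase, rose in all 4 settings. Its log2 changes were 0.65 ± 0.15 and 1.11 ± 0.15 in normal M-CSF in wild-type and knockout cells, and 1.14 ± 0.16 and 1.12 ± 0.16 in low M-CSF. Of the 3 components of that complex, Dlst thus passed in 3 of the 4 settings, Ogdh in 1 and Dld in all. In normal M-CSF, 1 of the 12 other cycle genes rose in wild-type cells (18.3% of all genes), and 2 rose and 1 fell in knockout cells (20.9% and 21.8%). In low M-CSF, 2 rose and 3 fell in wild-type cells (27% and 33.6% of all genes), and 1 rose and 5 fell in knockout cells (26.5% and 41%). These counts are near or below the shares of all genes. Acod1, which draws cis-aconitate out of the cycle, rose by 7.20 and 7.46 on the log2 scale in normal M-CSF and by 9.59 and 9.40 in low M-CSF. Between genotypes, none of the 12 passed in normal M-CSF, where 1.86% of all genes did without and 4.04% with LPS. In low M-CSF without LPS, Sdha was higher in the knockout (0.49 ± 0.17), as were 7.74% of all genes. With LPS there, Sdhaf1 (-1.42 ± 0.52) and Mrps36 (-0.86 ± 0.27) were lower, as were 10.9% of all genes.

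Genes of pyruvate entry and cytosolic counterparts of the cycle enzymes were followed as further lists. Of 13 genes of pyruvate entry tested, 5 fell and 2 rose in low M-CSF without LPS in wild-type cells, where 21.9% of all genes fell and 22.4% rose. In knockout cells without LPS 8 fell and 3 rose (21.7% and 26.6% of all genes). With LPS 5 fell in wild-type and 9 in knockout cells (24.2% and 32.8% of all genes), and none rose. Pdk1, a kinase that switches pyruvate dehydrogenase off, fell in all 4 comparisons, by 1.20 and 1.80 without LPS in wild-type and knockout cells and by 1.91 and 1.83 with LPS. Of 7 cytosolic counterparts, 4 fell and 1 rose without LPS in each genotype, and with LPS 5 fell in wild-type and 6 in knockout cells and none rose. Acat2, the cytosolic acetyl-CoA acetyltransferase, fell in all 4 comparisons, by 2.06 and 2.75 without LPS in wild-type and knockout cells and by 1.37 and 2.41 with LPS. Mdh1, the cytosolic malate dehydrogenase, fell by 0.91 in wild-type cells without LPS and by 1.69 in knockout cells with LPS. Idh1, the cytosolic isocitrate dehydrogenase, was the counterpart that rose. It went the other way from Idh3a without LPS, rising in low M-CSF by 0.74 ± 0.19 (wild-type) and 1.11 ± 0.19 (knockout). With LPS it had a change of 0.39 ± 0.20 in wild-type cells, which did not pass, and it fell by 0.46 ± 0.20 in knockout cells. In low M-CSF with LPS, 2 of the 13 genes of pyruvate entry were lower in the knockout and none higher. Of all genes, 10.9% were lower and 8.2% higher. Pdhb, a subunit of pyruvate dehydrogenase, was 1 of the 2 (-0.96 ± 0.19). Of 16 genes tested from a list for entry and exit of cycle intermediates, 3 were lower and 1 was higher. Got2, the mitochondrial aspartate aminotransferase, was lower (-0.90 ± 0.20), and Glud1 was higher (0.62 ± 0.17).

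The 9 transcripts did not vary as 1 block. Over the 32 libraries the Pearson correlation of log2(CPM + 1) between 2 of them ran from -0.187 for Idh3b with Ogdh to 0.885 for Cs with Mdh2, with a median of 0.467 over 36 pairs. Suclg1 correlated with Fh1 at 0.884 and with Mdh2 at 0.882, and Idh3a with Mdh2 at 0.827. After the group means were taken out, the median was -0.005, with 0.754 for Cs with Mdh2 and -0.401 for Idh3a with Mdh2. These are descriptions: the libraries of a group share a condition, and libraries 1 and 3 and libraries 2 and 4 resemble each other. The genes most like the mean of the 9 were Nme2 (0.975), Taf10 (0.972), Timm13 (0.971), Atp5g3 (0.968) and Uqcr10 (0.96), of 11235 genes compared over the 32 libraries. Such values were not rare, as 165 of the 11235 had a correlation over 0.9.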

How the data were processed

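The table the authors deposited holds whole-number read counts per gene, with no normalisation. The submitters' processing notes name STAR, HTSeq, DESeq2 and mm10, with no version of the tools. All columns were assigned to samples by title. Symbols came from a RefSeq gene table by Entrez identifier (96.3% of 24885 identifiers, 99.5% of counts). Counts were fitted with edgeR 4.0.16 (R 4.3.3, limma 3.58.1) with 1 mean for each of 8 groups, TMM scaling and filterByExpr at its defaults (min.count 10, min.total.count 15). The two-sided quasi-likelihood F test was used for 18 comparisons, with Benjamini-Hochberg adjustment over 11244 genes and a threshold of 0.05. The method was also run on simulated counts. Those libraries were drawn independently, so the run could not check the effect of library pairs that resemble each other. A count was worth 0.0543 to 0.486 CPM. Alternatives were RLE size factors, no filter, a replicate block, library pairs summed, only the compared groups, DESeq2 1.42.0 and each library left out. The 9 genes, lists and tests were chosen with earlier results of these data known. All 9 genes are described. From each other list, at most the 3 called genes with the largest change in each direction are named, with Sdha, Sdhb, Idh1, Idh2, Acod1 and Pdk1; the other list genes named (Sdhc throughout, Mrps36 and Dld in some comparisons) were chosen after their values were seen. Some genes of these lists are not reported here. The 5 genes most like the mean of the 9 were taken by correlation with the mean of z-scored log2(CPM + 1).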

Additional observations from a re-analysis of the deposited data

Results flagged for a closer look

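In knockout cells in normal M-CSF with LPS, Fh1 measured 47 CPM in library 1 and 33.9, 35.0 and 35.2 CPM in the others, a gap wide enough to single it out by Dixon's test. It was 1 of 72 sets of 4 libraries examined, and chance alone singles out about 5% of sets.

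For the 9 genes, 12 differences between responses passed the interaction test in edgeR. The LPS response of the knockout, relative to the wild-type, was larger for Idh3b in normal M-CSF (log2 difference 1.25). In low M-CSF it was lower for Idh3a (-2.05), Dlst (-0.99), Fh1 (-0.98) and Mdh2 (-0.93). The medium response with LPS was lower in the knockout for Fh1 (-1.26) and Idh3b (-0.82). Between media, the LPS response in low M-CSF was larger for Dlst in wild-type cells (0.79), and lower in knockout cells for Fh1 (-1.40), Idh3b (-1.34), Idh3a (-1.23) and Idh3g (-1.15). Of these 12, the Fh1 and Idh3b differences between media in knockout cells also passed with library pairs summed.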

How the results depend on the processing

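Of 58 results for the 9 genes that passed in edgeR, 32 passed in every alternative, and none changed direction. Counts below are of the 9 genes unless all genes are named. With library pairs summed, which leaves 2 samples a group, the count was 0 for genotype in normal M-CSF with LPS and in low M-CSF without LPS, 1 in low M-CSF with LPS, 0 for LPS in normal M-CSF wild-type cells, 2 in low M-CSF and 3 in knockout cells in low M-CSF. It was then 0 for the genotype interactions with M-CSF under LPS and with LPS in either medium, 0 for M-CSF by LPS in wild-type and 2 in knockout cells. All genes called then numbered 39, 43, 621 and 485 for genotype (209, 454, 1879 and 2147 in the main analysis, in the order normal without and with LPS, low without and with LPS). For M-CSF they were 2969 and 3327 in wild-type cells without and with LPS and 3539 in knockout cells without (4983, 5132, 5422), and for LPS in normal M-CSF wild-type cells 2594 (4061). For the interactions they were 97 and 1 (genotype by M-CSF without and with LPS, main 519 and 617), 0 and 91 (genotype by LPS in normal and low M-CSF, main 60 and 1800), and 853 and 1702 (M-CSF by LPS, main 2649 and 3971).

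With only the compared groups, the count was 0 and 1 for genotype in low M-CSF without and with LPS, 1 for LPS in normal M-CSF wild-type cells, 2 for genotype by LPS in low M-CSF and 0 for M-CSF by LPS in wild-type cells. All genes called were 866 and 1037 for genotype with LPS in normal and low M-CSF, and 120 and 959 for genotype by LPS. Without the filter the counts were 1 for LPS in normal M-CSF wild-type cells and 0 for M-CSF by LPS in wild-type cells, with 102 genes called for genotype by LPS in normal M-CSF. RLE size factors gave 1 for LPS in normal M-CSF wild-type cells. DESeq2 gave 1 for genotype by M-CSF without LPS, and called 359 and 693 genes for genotype in normal M-CSF, 962 for genotype by M-CSF with LPS and 194 for genotype by LPS in normal M-CSF.

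Leaving out 1 library gave 0 to 1 of the 9 for genotype in low M-CSF without LPS and 1 to 3 with LPS, 0 to 2 for LPS in normal M-CSF wild-type cells and 3 to 6 in knockout cells in low M-CSF. It gave 0 to 1 for genotype by M-CSF without LPS, 1 to 2 with LPS, 2 to 5 for genotype by LPS in low M-CSF and 0 to 1 for M-CSF by LPS in wild-type cells. All genes called were 222 to 361 for genotype in normal M-CSF with LPS, 322 to 801 for genotype by M-CSF with LPS and 30 to 60 for genotype by LPS in normal M-CSF. Calls gained by leaving out 1 library were Idh3g (0.0341) and Ogdh (0.0387), lower in low M-CSF in wild-type cells with LPS, without low M-CSF library 2, Idh3g higher in low M-CSF in knockout cells without LPS (0.0333), Idh3b lower with LPS in wild-type cells in normal M-CSF (0.0383) and Cs higher with LPS in knockout cells in low M-CSF (0.0444). For the interactions they were Dlst in genotype by M-CSF without LPS (3 fits, 0.0293 to 0.044), Idh3g in genotype by LPS in low M-CSF (2 fits, 0.0456 and 0.0465), Idh3b in M-CSF by LPS in wild-type (0.0305) and Suclg1 in knockout cells (5 fits, 0.0398 to 0.0458). DESeq2 also gained Cs with LPS in knockout cells in low M-CSF (0.0272), and lost Suclg1, Idh3b and Mdh2 there. The compared groups alone gained Dlst in M-CSF by LPS in knockout cells (0.0424).

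The replicate block changed 1 call each way: Mdh2 with LPS in knockout cells in low M-CSF was lost (0.0593) and Suclg1 in M-CSF by LPS in knockout cells was gained (0.0491). Deviations of same-numbered libraries in different groups had a median correlation of 0.002 (-0.377 to 0.353, 112 pairs), beside -0.002 for other numbers. This comparison pooled pairs within and between genotypes. It also counted the numbers whose libraries resembled each other within groups as other numbers. It therefore cannot exclude pairing by number within a genotype. Fewer samples make a test with pairs summed weaker, and the cause of each other lost call was not tested. Depth limits Idh3a and Fh1 most in knockout cells in low M-CSF with LPS, the group with the shallowest library, where single libraries held as few as 15 counts.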
